A study of Mus musculus with 8 samples.

Results

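Nae1, Usp9x and Smchd1 are 3 of the 3160 genes for which RNA was counted in mouse embryonic stem (ES) cells and epiblast-like aggregates (ELA). They were selected on the ratio of ribosome-bound to total RNA in ES cells, where their ratios led the table, so those ratios are given below as a description and were not tested. All libraries came from E14Tg2A, an ES cell line of the 129/Ola strain without a transgene named in the labels. ES cells (0 days in vitro) grew in serum with LIF, and ELA are the same line after 2 days as floating aggregates in a chemically defined medium without either. Cycloheximide, which stalls ribosomes on mRNA, was applied to every sample before lysis. Total RNA of the lysate formed the Input, and RNA recovered with an antibody against the ribosomal protein Rpl10a formed the Rpl10a-IP, with 2 replicates of each fraction in each stage. Control precipitations with an anti-GFP antibody were not analysed here, so binding to beads or to an unrelated antibody is not subtracted from any value. Nothing in the labels says that replicates were separate cultures, so p-values measure the spread between these libraries.

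The proteins work in different parts of the cell. Nae1 is the regulatory subunit of the NEDD8-activating enzyme, which with its catalytic partner Uba3 loads the ubiquitin-like protein Nedd8 so that it can be attached to cullins and switch on cullin ubiquitin ligases. Usp9x is a large X-linked deubiquitinase that removes ubiquitin from many substrates and protects them from degradation, and it is highly expressed in stem cells. Smchd1 is a non-canonical member of the SMC (structural maintenance of chromosomes) proteins, needed to keep genes silent on the inactive X chromosome and at imprinted clusters. An mRNA with more ribosomes bound is more readily captured through Rpl10a, and a ratio above 1 means that a gene takes a larger share of the Rpl10a-IP than of the Input library, relative to the other genes.

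Nae1 lies on chromosome 8 (chr8:104511028-104534656), Usp9x on the X chromosome (chrX:13070982-13173328) and Smchd1 on chromosome 17 (chr17:71344489-71475366) in RefSeq's annotation of GRCm38.p6, the same assembly as mm10. Their protein-coding transcripts in GENCODE vM1 differ in size. Nae1 has 1808 nt with a coding part of 1605 nt and a 5′ untranslated region of 73 nt. Usp9x has 10324 nt, a coding part of 7680 nt and a 5′ untranslated region of 356 nt. Smchd1 has 7052 nt, a coding part of 6024 nt and a 5′ untranslated region of 179 nt. The medians over 3116 genes with a transcript were 3511.5 nt in all, 1668 nt coding and 164 nt for the 5′ untranslated region. In coding length Nae1 therefore sat at percentile 47.7, near the middle, while Usp9x at 97.8 and Smchd1 at 95.3 were among the longest.

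The sequence around the start codon is shown because ribosomes choose their start there. It runs from 9 bases before the ATG to base 6 of the coding sequence, with capitals for the base at -3, the ATG and the base at +4, which are the positions that matter most in the Kozak consensus.
Nae1: ggcgcgGccATGGcg
Usp9x: gtgtcgAgtATGAca
Smchd1: tccctcAacATGGca
All 3 carry a purine at -3, as did 87.6% of 2947 genes with a window of this size. Nae1 and Smchd1 also have G at +4, which together with the purine was found in 47.4% of genes, and Usp9x has A there.

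The libraries differed in depth. Over the genes of the table the Rpl10a-IP libraries held 16076207 to 23483388 reads and the ES Input libraries 3898414 and 5380139, but the ELA Input libraries held 159587 and 410192. In the methods the shallower of these, ELA Input replicate 1, was set aside for poor correlation with other libraries, low mapping, low read quality and many PCR duplicates. It is used here wherever both ELA Input libraries are needed, and the ELA results of the 3 genes are also given without it. Values below are normalised counts, that is, reads divided by a library factor that makes the bulk of genes agree over the 8 libraries. Of 35 markers fixed for the cell types, 11 were in the table. The naive pluripotency markers Klf4, Tfcp2l1, Fgf4 and Tdgf1 were lower in ELA Input than in ES Input, with log2 changes of -1.69 to -3.89. Of the general pluripotency markers, Pou5f1 and Nanog had log2 changes of -1.18 and -2.90, Sall4 and Lin28a 0.25 and 0.11, and Dnmt3b 2.62. The primed marker Dnmt3a had 0.70 and the neural precursor marker Nes 2.51. The 4 endoderm, 3 mesoderm and 4 fibroblast markers were not analysed here, since the deposited table holds a filtered set of genes. A change in a bulk sample can reflect fewer cells of a type or less RNA per cell, and these cannot be told apart.

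Nae1 had normalised counts of 492 and 549 in ES Input and 988 and 964 in ES Rpl10a-IP. In ELA the Input libraries gave 625 and 837 and the Rpl10a-IP libraries 1524 and 1712. In both stages each Rpl10a-IP library exceeded each Input library, and the ELA Rpl10a-IP libraries were the highest of all. The ELA Input values rest on only 23 and 79 reads.

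Usp9x was by far the most abundant of the 3. Its normalised counts were 9189 and 10471 in ES Input and 17655 and 17191 in ES Rpl10a-IP. They were 8483 and 7367 in ELA Input, from 312 and 695 reads, and 19018 and 17896 in ELA Rpl10a-IP. It stood above at least 97.8% of the genes in each of the 8 libraries, and its Rpl10a-IP values lay close together in the 2 stages, with 17655 as the highest ES and 17896 as the lowest ELA value.

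Smchd1 had normalised counts of 1395 and 1460 in ES Input and 2452 and 2332 in ES Rpl10a-IP. In ELA it reached 2175 and 2533 in Input, from 80 and 239 reads, and 6280 and 6334 in Rpl10a-IP. Both fractions were higher in ELA than in ES without overlap, and the step was larger in the ribosome-bound RNA.

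**Figure D1:**
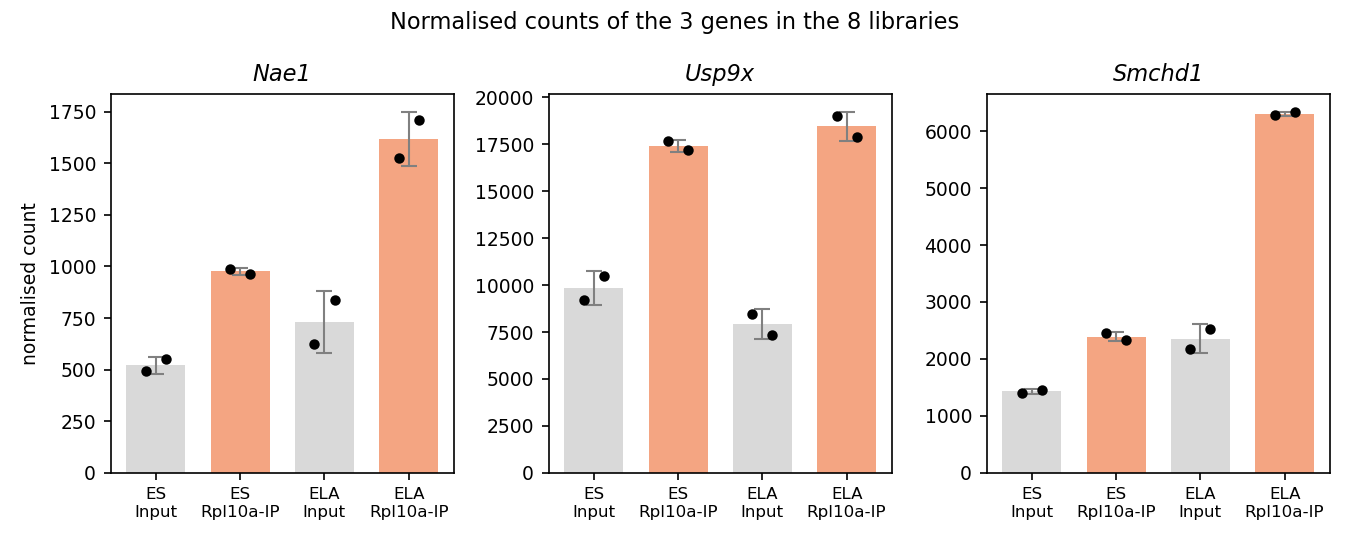
Normalised counts (vertical axes, linear from 0, a different scale per gene) of Nae1, Usp9x and Smchd1 in the 4 groups. Bars are means, whiskers the SD over 2 replicates and points the single libraries, with Rpl10a-IP in orange and Input in grey. The Rpl10a-IP points lie above the Input points of the same stage for each gene, and Smchd1 rises to 6280 and 6334 in ELA Rpl10a-IP.

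Counts of different genes can be compared only per length. Per kilobase of transcript, Usp9x led in ES Input with 952 ± 87.8 normalised counts (SD, n = 2), before Nae1 with 288 ± 22.4 (SD, n = 2) and Smchd1 with 202 ± 6.54 (SD, n = 2). In ELA Input the order was the same, with 768 ± 76.4 for Usp9x (SD, n = 2), 405 ± 83.0 for Nae1 (SD, n = 2) and 334 ± 35.9 for Smchd1 (SD, n = 2), but the last 2 did not differ beyond their spread. In ELA Rpl10a-IP Nae1 with 895 ± 73.5 (SD, n = 2) and Smchd1 with 894 ± 5.43 (SD, n = 2) were level, and Usp9x had 1788 ± 76.8 (SD, n = 2).

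The ratio of Rpl10a-IP to Input in ES cells was the measure of selection. It was 2.01 and 1.75 in the 2 replicates of Nae1, 1.92 and 1.64 in those of Usp9x, and 1.76 and 1.60 in those of Smchd1. Their means were 1.88 ± 0.18, 1.78 ± 0.20 and 1.68 ± 0.11 (SD, n = 2). The boundary of the selection is thin. Vps13a, a lipid transfer protein, had 1.89 and 1.46 with a mean of 1.68 ± 0.30 (SD, n = 2), and it takes place 3 ahead of Smchd1 when the deposited size factors are used. Cul2, a cullin that Nedd8 is attached to, followed with a mean of 1.65 ± 0.059 (SD, n = 2), and after it came a row at 1.64 ± 0.042 (SD, n = 2) whose symbol had been turned into a date in the table and which is left unnamed. In ES cells 19.5% of the 3160 genes were called higher and 20.0% lower in Rpl10a-IP, and the selection used this contrast, so nothing is read from the place of the 3 genes in it. The deposited size factors were used within each fraction, with the mean counts of Input and Rpl10a-IP set equal here. With them 402 genes were called higher and 808 lower in ES, in place of 616 and 631. The balance between the fractions in these counts was thus not taken from the authors.

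Whether the genes were also ribosome-enriched in ELA cells is a separate question, since the 4 ELA libraries took no part in the selection. All 3 were higher in ELA Rpl10a-IP than in ELA Input. The ratio was 2.44 and 2.04 in the replicates of Nae1 (mean 2.24 ± 0.28, SD, n = 2), 2.24 and 2.43 in those of Usp9x (2.34 ± 0.13, SD, n = 2), and 2.89 and 2.50 in those of Smchd1 (2.69 ± 0.27, SD, n = 2). With limma over all genes, the log2 enrichment of Nae1 was 1.16 (SE 0.12, Benjamini-Hochberg adjusted p = 3.76e-10). That of Usp9x was 1.22 (SE 0.10, limma adjusted p = 5.57e-13) and that of Smchd1 1.43 (SE 0.11, limma adjusted p = 5.01e-14). Calls of this kind were common, as 36.8% of the genes were called higher and 37.2% lower in this comparison. In the order of log2 enrichment in ELA, Smchd1 was at place 89, Usp9x at 164 and Nae1 at 204 of 3160, so the genes that led in ES were within the upper 6.46% in ELA but did not lead. Without ELA Input replicate 1 the log2 enrichments were 0.95 for Nae1, 1.32 for Usp9x and 1.32 for Smchd1, and each was still called. The methods describe a filter on the SD of counts, and among the genes kept the SD of the 2 replicate ratios was at most 20.0% of their mean. Keeping only genes with such close ratios makes these adjusted p-values too small. The pooled spread also treats the shallow ELA Input libraries like the others.

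The counting error in ELA is set by the Input reads. The exact 95% intervals of the ratio, which cover counting error only, were 1.62 to 3.85 and 1.64 to 2.59 for the replicates of Nae1. They were 2.01 to 2.51 and 2.25 to 2.62 for Usp9x, and 2.32 to 3.64 and 2.20 to 2.85 for Smchd1. None of them reached 1. They take reads as independent, and the methods report many PCR duplicates in ELA Input replicate 1, so the intervals that use it are likely too narrow. Within ELA, Smchd1 exceeded Nae1 by 0.24 and 0.29 on the log2 scale in the 2 replicates and Usp9x by 0.36 and 0.04, while Usp9x lay 0.12 below Nae1 in the first and 0.25 above it in the second. With 2 replicates no exact test of these 3 differences could reach 0.05, and Usp9x and Nae1 did not keep one order.

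**Figure D2:**
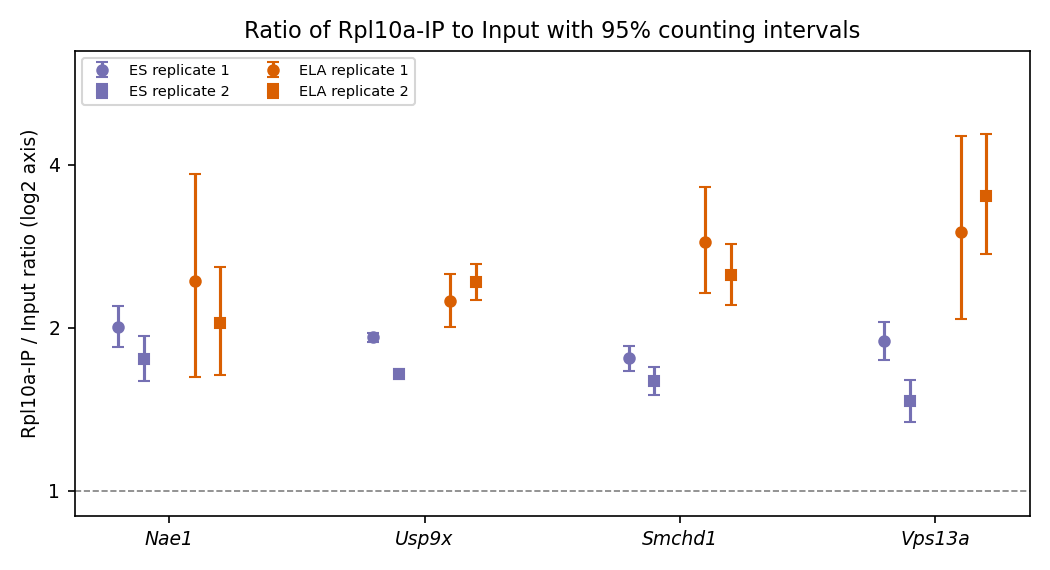
Ratio of Rpl10a-IP to Input (vertical axis, log2 scale) in each replicate of ES (purple) and ELA (orange) for the 3 genes and for Vps13a, which lies next to Smchd1 at the boundary of the selection. Whiskers are exact 95% counting intervals and the dashed line marks a ratio of 1. Both ELA points of each gene lie above both of its ES points, and the ELA intervals are widest for Nae1 and Vps13a, which have the fewest Input reads.

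From ES to ELA the 3 genes took different courses. These values use the ES libraries of the selection and are given without a test. Total RNA of Smchd1 was higher in ELA by 0.72 on the log2 scale (SE 0.11) and that of Nae1 by 0.48 (SE 0.12), while that of Usp9x was lower by 0.31, a log2 change of -0.31 (SE 0.10). Ribosome-bound RNA differed by 1.40 for Smchd1 (SE 0.09), by 0.73 for Nae1 (SE 0.10) and by 0.08 for Usp9x (SE 0.09). Smchd1 thus had 2.64 times as much ribosome-bound RNA in ELA, relative to the other genes, against 1.64 times as much total RNA. For Usp9x a lower total level went with an Rpl10a-IP level that differed by less than 1 SE. The change in enrichment from ES to ELA was 0.68 for Smchd1 (SE 0.15), 0.39 for Usp9x (SE 0.14) and 0.25 for Nae1 (SE 0.18). The value of Nae1 turned on single libraries, mainly of ELA Input: it was 0.04 without ELA Input replicate 1, 0.46 without replicate 2 of that group and 0.17 without ELA Rpl10a-IP replicate 2 or without ES Input replicate 2. The change in its total RNA was 0.69 without ELA Input replicate 1 and 0.27 without replicate 2. For Usp9x the change in ribosome-bound RNA was 0.04 without ELA Rpl10a-IP replicate 1 and 0.13 without replicate 2.

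The 3 genes also share a low GC content, which goes with the ES ratio over the whole table. It was 40.4% in the Nae1 transcript, 40.6% in that of Usp9x and 42.2% in that of Smchd1, at percentiles 6.0, 6.5 and 13.3 of the table, whose median was 48.3%. Vps13a at 40.0% and Cul2 at 40.6%, just outside the selection, were as low. At the last positions of their codons GC was 33.8, 35.0 and 38.4%, against a median of 55.1%. Across the 3116 genes, which are not independent replicates, ES enrichment correlated with GC content at r = -0.41, and ELA enrichment at r = -0.048. The 779 genes with a GC content of at most 44.4% had a median log2 ES enrichment of 0.15, and the 779 with at least 52.4% had -0.16. Coding length on the log2 scale correlated with log2 enrichment at r = 0.28 in ES and 0.66 in ELA.

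**Figure D3:**
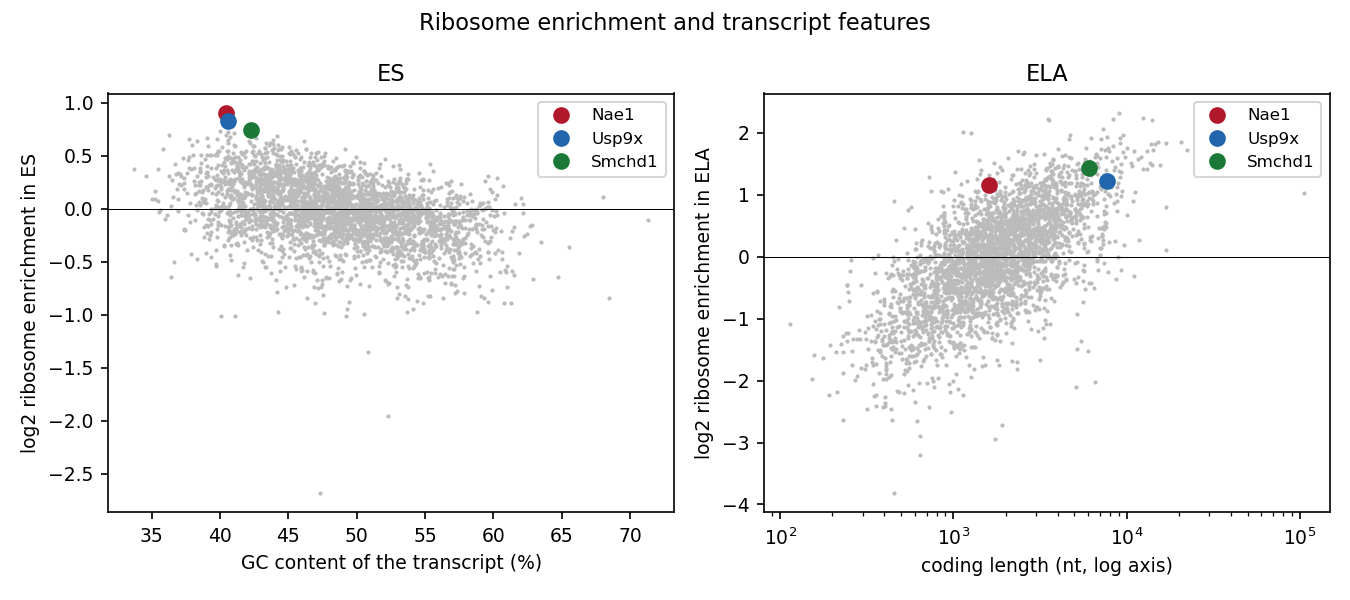
Log2 ribosome enrichment of each gene (grey points, 3116 genes) against GC content of its transcript in ES (left) and against coding length in ELA (right, log axis). Nae1 is red, Usp9x blue and Smchd1 green. All 3 lie at the low-GC side and the upper edge in ES, and in ELA Nae1 lies above most genes of similar length while Usp9x lies inside the cloud.

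A further setting corrected for the length of the whole transcript, in which Nae1 sat at percentile 15.1, and not for coding length. On the log2 scale these lengths correlated with ELA enrichment at r = 0.49 and 0.66. When each library was corrected for transcript length and GC content, the ELA enrichment of Nae1 became 1.77 (SE 0.11, limma adjusted p = 3.58e-12), which moved it from place 204 to place 12 of 3116. That of Usp9x became 0.69 (SE 0.09, limma adjusted p = 6.13e-07) and its place 508, and that of Smchd1 became 1.05 (SE 0.09, limma adjusted p = 7.28e-10) and its place 199. Each of the 3 calls held, but the order of the genes changed, with Nae1 first and Usp9x last. Under the same correction Usp9x had a change in enrichment of -0.03 (SE 0.13) in place of 0.39, so its direction is not fixed by these data. Nae1 had 0.97 (SE 0.15) in place of 0.25, and Smchd1 0.45 (SE 0.13) in place of 0.68. The correction was not run without ELA Input replicate 1, and without that library the uncorrected change of Nae1 was 0.04. In ES the correction left Nae1 and Usp9x at places 1 and 2 with 0.80 and 0.72, and Smchd1 moved to place 9 with 0.60. The ES values chose the genes, so these places are a description only.

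Genes whose normalised counts ran most like those of the 3 were found by Pearson's r of log2(normalised count + 1) over the 8 libraries, which hold only 4 groups. For Nae1 they were Txnrd1, a thioredoxin reductase, at r = 0.986, Orc3, a subunit of the origin recognition complex, at 0.983, and Copb1, a coat protein of transport vesicles, at 0.980. For Usp9x they were Dnm1l, which drives mitochondrial fission, at 0.980, Trappc8, a vesicle tethering subunit, at 0.978, and Vps35, a retromer subunit, at 0.972. For Smchd1 they were Fam208b at 0.996, Hace1, a ubiquitin ligase, at 0.996, and Rb1, the retinoblastoma protein, at 0.995. Their log2 enrichments were 0.31 to 0.62 in ES and 0.56 to 1.11 in ELA, a direction that the choice by likeness over the same libraries nearly fixes. Among the 3 genes themselves, r was 0.957 between Nae1 and Smchd1, 0.767 between Nae1 and Usp9x and 0.636 between Usp9x and Smchd1.

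The genes of the Nae1 pathway lay on both sides in ELA, in shares not far from those of all genes. Of 54 symbols of NEDD8 conjugation and cullin ligases, 26 other than Nae1 were measured, and 12 were called higher, 9 lower and 5 neither in ELA Rpl10a-IP than in ELA Input (46.2% higher and 34.6% lower, against 36.8 and 37.2% of all genes). Their median log2 enrichment was 0.23, against -0.01 over all genes. Uba3, Ube2m and Ube2f, which act with Nae1 in loading Nedd8 or passing it on, were not analysed here. Nedd8 itself had a log2 enrichment of -1.23 (SE 0.12, limma adjusted p = 8.07e-11), the opposite direction to Nae1, but with the length and GC correction it was 0.13 and was not called. Rbx1, the small RING subunit that binds cullins, was lower with -1.11 (SE 0.12, limma adjusted p = 5.98e-10), and with -0.34 after that correction (limma adjusted p = 0.0118).

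Cand1, which exchanges substrate receptors on cullins that lack Nedd8, was the highest of the list in ELA at 1.49 (SE 0.10, limma adjusted p = 4.98e-15) and had 0.99 with the length and GC correction, followed by Ddb1, the Cul4 adaptor, at 1.12 (SE 0.10, limma adjusted p = 4.36e-12). Of 7 cullins 6 were called higher, among them Cul2 with 0.89, Cul1 with 0.73 and Cul4b with 0.66. The cullins are a small part of a list whose other members lay on both sides, and 36.8% of all genes were called higher and 37.2% lower. Cul3 was lower with -0.31 (limma adjusted p = 0.0103), a call that was lost without ELA Rpl10a-IP replicate 1, where it was -0.17. Cops5, the COP9 signalosome subunit that removes Nedd8 from cullins, had -0.16 (limma adjusted p = 0.214). It was called lower with total reads as the scaling, at -0.27, and had 0.21 after the length and GC correction. In ES, 10 genes of the list were called higher and 4 lower (38.5 and 15.4%, against 19.5 and 20.0% of all genes), or 8 and 3 with all 8 libraries in the fit, with a median of 0.13 against -0.02 over all genes. Total RNA was called higher in ELA for 8 and lower for 8, near the 34.5 and 35.8% over all genes. Enrichment was called higher in ELA than in ES for 7 and lower for 8, where 28.4 and 27.7% of all genes were called. Uba2, which belongs to the related enzyme that activates SUMO, was the only other E1 subunit measured of 11 listed, with log2 enrichments of 0.41 in ES and 0.96 in ELA (SE 0.10, limma adjusted p = 2.85e-10).

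Of 87 deubiquitinase symbols listed, 31 other than Usp9x were measured, and 19 were called higher, 6 lower and 6 neither in ELA Rpl10a-IP (61.3 and 19.4%, against 36.8 and 37.2% of all genes), with a median log2 enrichment of 0.49 against -0.01 over all genes. Usp24, a close relative of Usp9x, had 1.70 (SE 0.11, limma adjusted p = 7.40e-16) and Usp34, another very large family member, 1.46 (SE 0.11, limma adjusted p = 2.96e-14). Both stood above Usp9x, and with the length and GC correction they had 1.01 and 0.85. Usp7, which acts on Mdm2 and p53, had 0.37 (SE 0.10, limma adjusted p = 0.000983), but 0.09 and no call after the length and GC correction. Usp8, which works on endosomes, was the lowest at -1.15 (SE 0.11, limma adjusted p = 2.38e-11), and Otud6b followed at -0.86 (SE 0.12, limma adjusted p = 1.26e-07). With the correction 15 genes of the list were called higher and 7 lower, where 36.5 and 35.1% of 3116 genes were called, and the median was 0.22. In ES, 10 were called higher and 1 lower (32.3 and 3.23%, against 19.5 and 20.0%), or 8 and 0 with all 8 libraries in the fit, with a median of 0.07, and Usp24 and Usp34 had 0.41 and 0.39. Total RNA was called higher in ELA for 11 and lower for 10 (35.5 and 32.3%, against 34.5 and 35.8%), and enrichment was called higher in ELA than in ES for 13 and lower for 5 (41.9 and 16.1%, against 28.4 and 27.7%).

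Of 17 reported partners and substrates of Usp9x, 7 were measured, and 3 were called higher and 3 lower in ELA Rpl10a-IP (42.9% each, against 36.8 and 37.2% of all genes). Itch, a ubiquitin ligase, had 0.85 (SE 0.11, limma adjusted p = 3.41e-08) and Ctnnb1, β-catenin, 0.59 (SE 0.10, limma adjusted p = 1.79e-06). The survival proteins Birc5 and Mcl1 were lower, at -0.92 (SE 0.12, limma adjusted p = 9.50e-09) and -0.85 (SE 0.11, limma adjusted p = 1.37e-08). The value of Birc5 became -0.13 and its call was lost with the length and GC correction. Smad4, the common mediator of TGF-β signals, had 0.10 (limma adjusted p = 0.442), and its sign turned with total reads as the scaling. In total RNA 4 of the 7 were called higher in ELA and 3 lower, where 34.5 and 35.8% of all genes were called, with Mcl1 at -1.38 (limma adjusted p = 1.73e-13) and Smad4 at 0.52 (limma adjusted p = 0.000145). In ES, 2 of them were called higher and 1 lower in Rpl10a-IP (28.6 and 14.3%, against 19.5 and 20.0% of all genes), and enrichment was called higher in ELA than in ES for 2 and lower for 3 (28.6 and 42.9%, against 28.4 and 27.7%).

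Of 33 symbols of the SMC complexes, to which Smchd1 is related, 13 others were measured. In ELA 9 were called higher, 1 lower and 3 neither in Rpl10a-IP (69.2 and 7.69%, against 36.8 and 37.2% of all genes). With total reads as the scaling or without ELA Input replicate 1, 3 were called lower. The median log2 enrichment was 0.44, and 0.27 with the length and GC correction, under which 8 were called higher and 1 lower, against 36.5 and 35.1% of 3116 genes. Ncapg, a condensin subunit, had 1.64 (SE 0.11, limma adjusted p = 1.75e-15), above Smchd1, and Pds5b, a cohesin regulator, 0.97 (SE 0.11, limma adjusted p = 5.57e-10), or 0.62 with that correction. The core subunits Smc6 and Smc3 had 0.44 (SE 0.11, limma adjusted p = 0.000532) and 0.37 (SE 0.10, limma adjusted p = 0.00129), or 0.27 and 0.25 with the correction, and the condensin subunit Ncapd2 had 0.36 (limma adjusted p = 0.00537), which lost its call with total reads as the scaling, with the length and GC correction and without ELA Rpl10a-IP replicate 1. The gene called lower was Ctcf, the insulator protein that stops cohesin, at -0.99 (SE 0.11, limma adjusted p = 2.94e-10). In ES 8 were called higher and 1 lower (61.5 and 7.69%, against 19.5 and 20.0% of all genes), or 5 and 1 with all 8 libraries in the fit, and the median was 0.24. Total RNA was called higher in ELA for 6 and lower for 2 (46.2 and 15.4%, against 34.5 and 35.8%), and enrichment was called higher in ELA than in ES for 4 and lower for 1 (30.8 and 7.69%, against 28.4 and 27.7%).

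Of 36 symbols of X inactivation and gene silencing factors, 22 others than Smchd1 were measured, and 7 were called higher, 6 lower and 9 neither in ELA Rpl10a-IP. These shares of 31.8 and 27.3% lay below the 36.8 and 37.2% of all genes, and the median log2 enrichment was 0.06. With the length and GC correction 11 were called higher and 7 lower, against 36.5 and 35.1% of 3116 genes, with a median of 0.18. Lrif1, which binds Smchd1 and links it to heterochromatin, had 0.00 (SE 0.13, limma adjusted p = 0.991) in ELA, but 0.34 and a call with the length and GC correction. Setdb1, a histone H3K9 methyltransferase, had 1.18 (SE 0.11, limma adjusted p = 8.13e-12) and Spen, the repressor that Xist recruits, 0.90 (SE 0.12, limma adjusted p = 5.24e-08), or 0.48 with that correction. Cbx1, a heterochromatin protein, had -1.45 (SE 0.11, limma adjusted p = 7.15e-14), or -0.90 with it, and the Polycomb protein Pcgf3 -1.36 (SE 0.12, limma adjusted p = 3.17e-12). Rlim, the X-linked ubiquitin ligase that acts on Rex1, had -0.27 (limma adjusted p = 0.0131), a call that was lost with library weights, without ELA Input replicate 2 (-0.21) and without ELA Rpl10a-IP replicate 1 (-0.26), while the length and GC correction gave -0.64. Hnrnpu, which holds Xist on chromatin, had 0.14 (limma adjusted p = 0.165).

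In total RNA 8 of these silencing factors were called higher in ELA and 11 lower (36.4 and 50.0%, against 34.5 and 35.8% of all genes), with a median of -0.24 against -0.02 over all genes. The de novo methyltransferase Dnmt3b was higher by 2.62 (SE 0.10, limma adjusted p = 4.55e-22), Rlim by 0.99 (SE 0.10, limma adjusted p = 6.76e-11) and Lrif1 by 0.83 (SE 0.13, limma adjusted p = 1.25e-06), beside 0.72 for Smchd1. Dnmt3b had a log2 ribosome enrichment of 0.43 in ELA (limma adjusted p = 0.000244), and 0.25 with the length and GC correction. In ES 6 of the list were called higher and 3 lower (27.3 and 13.6%, against 19.5 and 20.0% of all genes), or 2 and 1 with all 8 libraries in the fit. Enrichment was called higher in ELA than in ES for 6 and lower for 7 (27.3 and 31.8%, against 28.4 and 27.7%).

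**Figure D4:**
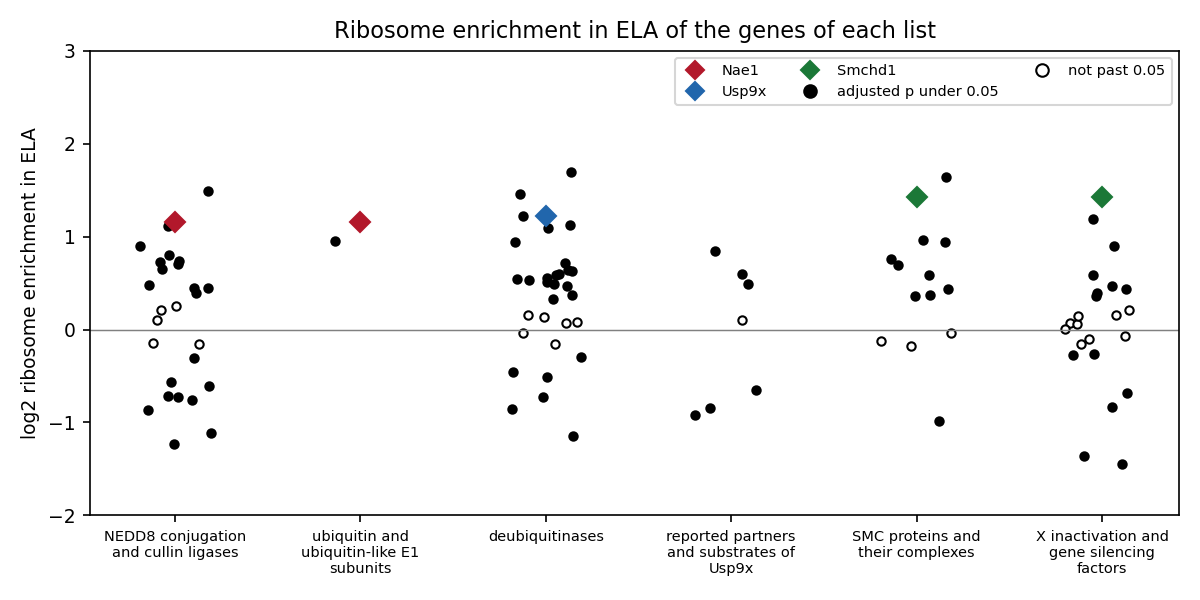
Log2 ribosome enrichment in ELA (vertical axis) of each measured gene of the 6 lists, with filled points for a limma adjusted p under 0.05 and open points for the rest. Diamonds are Nae1, Usp9x and Smchd1. Each diamond lies in the upper part of its lists, below Cand1 for Nae1, below Usp24 and Usp34 for Usp9x and below Ncapg for Smchd1 among SMC proteins.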

How the data were processed

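The deposited signal of each library is the read count per gene that the authors divided by a DESeq2 size factor. Per the labels and methods, reads were mapped to mm10 with TopHat2 and counted with HTSeq; the strand setting is not given in the sources used here, and Smchd1 overlaps 1 pseudogene. The authors had filtered the 3160 genes. In the values kept, the larger mean Input count was at least 50.02, and the SD of the 2 ratios was at most 20.0% of their mean, where the methods name the SD of the counts. Undoing the factors gave whole numbers of reads (100% of values, within 1e-06 of a read), which were rescaled by trimmed means of M-values. Linear models on log2(normalised count + 1), with 1 coefficient per group and a trended prior, came from limma 3.58.1 in R 4.3.3, at a Benjamini-Hochberg threshold of 0.05. This scale understates changes of low genes. ES enrichment and the change in ribosome-bound RNA used 7 libraries, without ELA Input replicate 1, which the authors set aside for its quality, and the rest all 8. The 26 other columns of the table (means, ratios and fold changes of the authors) were not used, and 0 per-sample columns belong to no sample here.

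Named genes were the 3 genes, the 3 that follow them in ES ratio, the 3 most correlated with each, 27 fixed pathway genes where measured, and the 2 highest and 2 lowest called genes of each list in ELA. The genes and lists were chosen with earlier results of these data known.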

Additional observations from a re-analysis of the deposited data

Results flagged for a closer look

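Among the 33 named genes of the lists, 24 had a ribosome enrichment that differed between ELA and ES by limma's test of the difference itself. Over all genes 28.4% were called higher and 27.7% lower in this comparison. The naming rule took the highest and lowest ELA enrichments of each list, and ELA enrichment is part of the difference, so neither the number of calls nor their even split is read as a result. The values are log2 differences of enrichment, ELA minus ES. In the NEDD8 and cullin list they were 0.97 for Ddb1, 0.91 for Cand1, 0.40 for Cul1, -0.43 for Cops5, -0.65 for Cul3, -0.75 for Nedd8 and -0.89 for Rbx1, and Uba2 had 0.55. Among the deubiquitinases Usp24 had 1.29, Usp34 1.07, Otud6b -0.66 and Usp8 -1.03. Among the partners of Usp9x, Itch had 0.44, Birc5 -0.48 and Mcl1 -0.81. Ncapg had 0.98, Pds5b 0.63 and Ctcf -1.01 among the SMC complexes. Setdb1 had 1.22, Spen 1.21, Dnmt3b 0.48, Rlim -0.50, Pcgf3 -0.76 and Cbx1 -1.17 among the silencing factors.

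The call held under each of the 16 alternatives run for 17 of the 24. With the length and GC correction, Nedd8 turned to 0.22 and Birc5 to 0.10, and the calls of Rbx1 (-0.26), Cops5 (-0.04) and Dnmt3b (0.18) were lost. A call that held could still change in size: the same correction gave 0.56 for Cand1 and -0.68 for Cbx1, both smaller, and 0.59 for Cul1, which was larger. Cul1 (0.30) and Itch (0.35) lost theirs with total reads as the scaling. Leaving out 1 library also ended the calls of Cul1, Cops5, Itch and Birc5.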

How the results depend on the processing

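The ELA enrichment of the 3 genes kept its direction and its call under all 16 alternatives run for each: from 0.95 to 1.77 for Nae1 (highest adjusted p 7.79e-07), from 0.69 to 1.32 for Usp9x (6.13e-07) and from 1.05 to 1.54 for Smchd1 (1.96e-09). Without ELA Input replicate 1 they were 0.95, 1.32 and 1.32. The ES count of 1247 calls was 762 with all 8 libraries, an alternative chosen after seeing the data like the library weights and the length and GC correction without the block, and 722 to 1348 when 1 library was left out (722 without ES Rpl10a-IP replicate 1 and 753 without ES Rpl10a-IP replicate 2). The cause was not tested. Total reads moved the median ELA enrichment by -0.11. Counts of called list genes in ELA, both directions together, stayed within 1.5 times the main ones. By direction, the silencing factors called higher went from 7 to 11 with the length and GC correction, with and without the block, and the SMC genes called lower from 1 to 3 with total reads and without ELA Input replicate 1. The ES ratios of the 3 genes moved by less than 1 SD under the other 2 scalings, which were total reads and the deposited size factors with the fractions set to equal means.

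Each Input was a part of the lysate used for a precipitation, so Input and Rpl10a-IP of a stage come in pairs, but the labels do not say that a shared replicate number marks a shared lysate. Deviations of same-numbered libraries correlated at 0.170 (ES Input and Rpl10a-IP), 0.504 (ELA Input and Rpl10a-IP), 0.153 (the Inputs) and -0.025 (the Rpl10a-IPs). With the replicate block the ELA enrichments were again 1.16, 1.22 and 1.43, and with that block plus the correction for length and GC 1.77, 0.69 and 1.05. No count of calls moved by over 1.5 times under the block alone. The block was a term for the replicate number, shared by ES and ELA. A separate term for the pairs of Input and Rpl10a-IP within each stage was not fitted. Whether such pairing changes the calls was therefore not tested. The planned edgeR and DESeq2 fits were not run: tests were kept to the normalised unit of the table, although its values convert to whole reads. The ELA Input depth limits Nae1 most, with 23 reads in replicate 1.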
